A study of Rattus norvegicus with 84 samples.

Results

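Col25a1, Sorcs3, Best4 and Foxp4 are 4 of the 41919 genes counted in RNA from the rat nucleus accumbens. They were chosen by their cocaine minus saline difference in the Core subregion, which kept 1 direction over 3 behavioural conditions, and Shell serves here as the contrast. In Core, Col25a1 and Sorcs3 were higher in the cocaine libraries, each by 0.17 on the log2 scale, about 1.13-fold and 1.12-fold. Best4 was lower by 0.37 (1.29-fold) and Foxp4 lower by 0.14 (1.10-fold). These Core differences chose the genes, so they are given as a description with no test. In Shell the same difference was between -0.02 and 0.06 for the 4 genes, and none passed a test there. Over all genes, 0 of 30911 passed for this average in Shell (0%) and 0 of 31370 in Core (0%).

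The 84 libraries came from wild-type Long-Evans rats, an outbred strain, and hold total RNA of either Core or Shell. Each subregion has 3 conditions (Ext, HC and Ctx) and 2 drugs (Coc for cocaine, Sal for saline), which gives 12 groups of 7 libraries. The 6 Core groups are Core Ext_Coc, Ext_Sal, HC_Coc, HC_Sal, Ctx_Coc and Ctx_Sal, and Shell has the same 6. Ext is extinction, from the study's design text; HC and Ctx are not spelled out, and are used in other work for home cage and context. The study asked how withdrawal from cocaine and extinction differ in each subregion. Doses, times and ages are not stated in the labels. Nor do they say whether libraries of a group are separate rats, so a p-value here covers only the variation among libraries, which may be technical in part. Core libraries carry the series names 1 (n = 12), 2 (n = 18) and F (n = 12), and Shell libraries 3, 4 and F in the same numbers.

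Cocaine blocks the reuptake of dopamine, and the accumbens, the ventral part of the striatum, is a main target of dopamine fibres. Most of its neurons are GABAergic projection neurons with D1 or D2 dopamine receptors. Core and Shell take part in different aspects of drug seeking: Core is tied more to responding to drug cues, Shell more to reward value and context. Col25a1 encodes a membrane-spanning collagen of neurons. Furin sheds its outer part, which binds amyloid beta and receptor phosphatases of the PTPRS and PTPRD kind. Sorcs3 encodes a sorting receptor of the VPS10P family, found behind the synapse, where it binds PICK1 and bears on glutamate receptor trafficking. Best4 encodes a bestrophin, a chloride channel opened by calcium, best known as a marker of a rare cell of the gut epithelium. Foxp4 encodes a forkhead transcription factor that pairs with FOXP1 and FOXP2, both abundant in striatal projection neurons.

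The promoters of Best4 and Foxp4, which shared a direction in Core, differ in base composition, and the windows are shown for that reason. RefSeq (rat build GRCr8, a later build than the one used for counting) gives a window for 3 of the 4 genes, not for Col25a1. Each is the 250 bases before the annotated start, on the plus strand, written 5′ to 3′. Capitals mark CG dinucleotides, the sites of DNA methylation, a choice made after the sequences had been seen. The window of Sorcs3, higher in the Core cocaine libraries, lies at chr1:257040192-257040441. Best4 and Foxp4, both lower there, have theirs at chr5:135858524-135858773 and chr9:20556020-20556269.
Sorcs3: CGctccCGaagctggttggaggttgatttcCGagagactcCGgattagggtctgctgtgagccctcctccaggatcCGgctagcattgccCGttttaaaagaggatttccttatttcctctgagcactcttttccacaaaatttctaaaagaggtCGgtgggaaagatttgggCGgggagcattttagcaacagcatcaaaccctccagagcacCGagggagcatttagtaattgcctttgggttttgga
Best4: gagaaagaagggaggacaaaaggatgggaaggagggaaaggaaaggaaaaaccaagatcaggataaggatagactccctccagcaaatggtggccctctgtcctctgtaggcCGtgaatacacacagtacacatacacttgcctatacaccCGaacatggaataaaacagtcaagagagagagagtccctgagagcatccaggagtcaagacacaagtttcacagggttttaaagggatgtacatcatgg
Foxp4: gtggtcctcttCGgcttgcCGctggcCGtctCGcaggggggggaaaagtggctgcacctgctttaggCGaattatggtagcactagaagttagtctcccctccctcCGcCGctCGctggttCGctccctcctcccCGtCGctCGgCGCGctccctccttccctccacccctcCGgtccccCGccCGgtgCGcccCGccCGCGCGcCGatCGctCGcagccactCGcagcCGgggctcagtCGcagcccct
The Foxp4 window is rich in CG, with 28 such sites and 70.8% G and C, and 93.2% of the 33469 rat promoter windows of that length hold fewer sites. Best4 has 2 sites and 46.8% G and C, against a median of 5 sites and 51.2% over all windows, and Sorcs3 has 9 sites and 49.6%. Motifs of factors tied to neuronal activity and of forkhead proteins were searched on both strands. These were the cAMP response element TGACGTCA (in 1.59% of all windows), its core TGACG, which the first contains (18.2%), the AP-1 site TGANTCA (6.34%) and the forkhead core TGTTTAC (3.21%). The 3 windows held 0 matches of each, which says only that these letters are not in these windows.

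Libraries held 13.6 to 22.5 M (mega) counts. Defining genes of projection neurons were present throughout: Drd1, Drd2, Ppp1r1b, Penk and Adora2a had counts in 42 of 42 libraries of each subregion, with Drd2 at a mean level of 7.10 in Core and 6.94 in Shell. Levels are log2 CPM, counts per M after scaling of the libraries, on a log2 scale. Genes that striatal cells should lack also had counts in all libraries, such as Tbr1 of cortical neurons (2.35 in Core, 2.70 in Shell). Olfactory and vomeronasal receptor genes, 2033 in number and silent in most brain neurons, gave a background level, their summed log2 CPM. It ran from 6.18 to 12.10 in Core and from 6.61 to 11.23 in Shell. The Core Ctx_Coc library 17-F had the highest, and that library stands apart: its 10 projection neuron markers summed to 6.92, against 9.41 in the next lowest Core cocaine library and 9.60 in the lowest Core saline library.

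The background matters for these 4 genes because their levels per base are low. Counts and FPKM, counts per kilobase of gene and M counts, together imply gene lengths of 399197 bases for Col25a1, 634850 for Sorcs3, 56901 for Foxp4 and 6852 for Best4, so the counts cover whole gene bodies with introns. Per length the genes were close to each other in Core, with median FPKM values of 0.37 for Col25a1, 0.41 for Sorcs3, 0.54 for Foxp4 and 0.57 for Best4. In Shell these were 0.49, 0.48, 0.50 and 0.49. The receptor genes had a median of 0.18 FPKM in each subregion. At the receptor genes' rate per base, background would make up a median of 46.4% of the Col25a1 counts in Core, 44.4% of Sorcs3, 33.5% of Foxp4 and 27.1% of Best4. In 17-F this estimate came to 96.5% for Col25a1, 86.7% for Sorcs3, 105% for Foxp4 and 110.2% for Best4. A share above 100% means that the estimate overshoots there. What part of the differences below comes from background was not tested; values with the background level as a term in the fit stand beside them.

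Col25a1, the membrane collagen, was higher with cocaine in all 3 Core conditions. In Core Ext the cocaine libraries had log2 CPM levels from 7.16 to 7.37 (median 7.195) and the saline libraries from 6.89 to 7.12 (median 7.02). The groups did not overlap: every cocaine library lay above every saline library, which held for 1 of 31370 tested genes (0.00319%), Col25a1 itself. Only this direction was counted. Col25a1 was chosen by its Core difference, so the share is a description and no measure of support. In Core HC the range was 7.03 to 7.48 (median 7.27) with cocaine and 7.00 to 7.21 (median 7.07) with saline. In Core Ctx it was 7.06 to 7.27 (median 7.19) with cocaine and 6.83 to 7.22 (median 7.06) with saline. These groups overlapped, and 6 of 7 cocaine libraries in HC and 7 of 7 in Ctx lay above the saline mean. The fitted log2 fold changes were 0.21 ± 0.07 in Ext, 0.13 ± 0.07 in HC and 0.17 ± 0.07 in Ctx, with an average of 0.17 ± 0.04 (SE, n = 7 libraries a group). Behind them lie 1168 to 4989 counts per library, which may include repeated copies of a molecule.

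Sorcs3, the sorting receptor, had the same direction and much the same size. In Core Ext its levels ran from 7.79 to 8.24 (median 7.99) with cocaine and from 7.54 to 7.98 (median 7.85) with saline. In Core HC they ran from 7.95 to 8.50 (median 8.09) and from 7.80 to 8.17 (median 7.97). In Core Ctx they ran from 7.84 to 8.12 (median 8.02) and from 7.59 to 8.20 (median 7.82). The groups overlapped in every condition, and 6 of 7 cocaine libraries lay above the saline mean in each. The fit gave 0.17 ± 0.09 in Ext, 0.18 ± 0.09 in HC and 0.15 ± 0.09 in Ctx, with an average of 0.17 ± 0.05 (SE). In Ctx the saline library 23-F, the lowest, weighs on the value: the difference of means was 0.13 with it and 0.08 without it. Counts per library were 2157 to 8826.

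Best4, the chloride channel, had the largest difference of the 4 and the fewest counts, 14 to 98 per Core library. In Core Ext its levels ran from 0.63 to 1.91 (median 1.75) with cocaine and from 1.49 to 2.32 (median 1.89) with saline. In Core HC they ran from 1.32 to 2.00 (median 1.79) and from 1.87 to 2.20 (median 2.03). In Core Ctx they ran from 1.22 to 2.00 (median 1.84) and from 1.82 to 2.29 (median 2.15). The drugs overlapped in each condition, and 7 of 7 cocaine libraries lay below the saline mean in each. Such counts, for all 4 genes, restate the Core differences that chose the genes and are no support. The fold changes were -0.42 ± 0.16 in Ext, -0.31 ± 0.16 in HC and -0.37 ± 0.16 in Ctx, with an average of -0.37 ± 0.09 (SE). Library 9-F, the lowest in Ext with 14 counts, weighs on that condition: the difference of means was -0.44 with it and -0.29 without it.

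Foxp4, the forkhead factor, was lower mainly in 1 condition. In Core Ctx its levels ran from 4.29 to 4.87 (median 4.80) with cocaine and from 4.80 to 5.28 (median 5.03) with saline, and 7 of 7 cocaine libraries lay below the saline mean. In Core Ext they ran from 4.69 to 4.88 (median 4.86) and from 4.77 to 5.07 (median 4.85), and again 7 of 7 lay below the saline mean. In Core HC they ran from 4.67 to 4.98 (median 4.83) and from 4.69 to 5.06 (median 4.85), where only 4 of 7 lay below it. The medians in Ext and HC nearly coincide. The fit gave -0.30 ± 0.08 in Ctx, -0.08 ± 0.08 in Ext and -0.04 ± 0.08 in HC, with an average of -0.14 ± 0.04 (SE). In Ext the difference of means was -0.07, and -0.04 without the saline library 1-6. In HC the sign was not stable: the difference of means was -0.03, it became 0.01 without the saline library 15-F, and the fit without the F series gave 0.03.

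**Figure D1:**
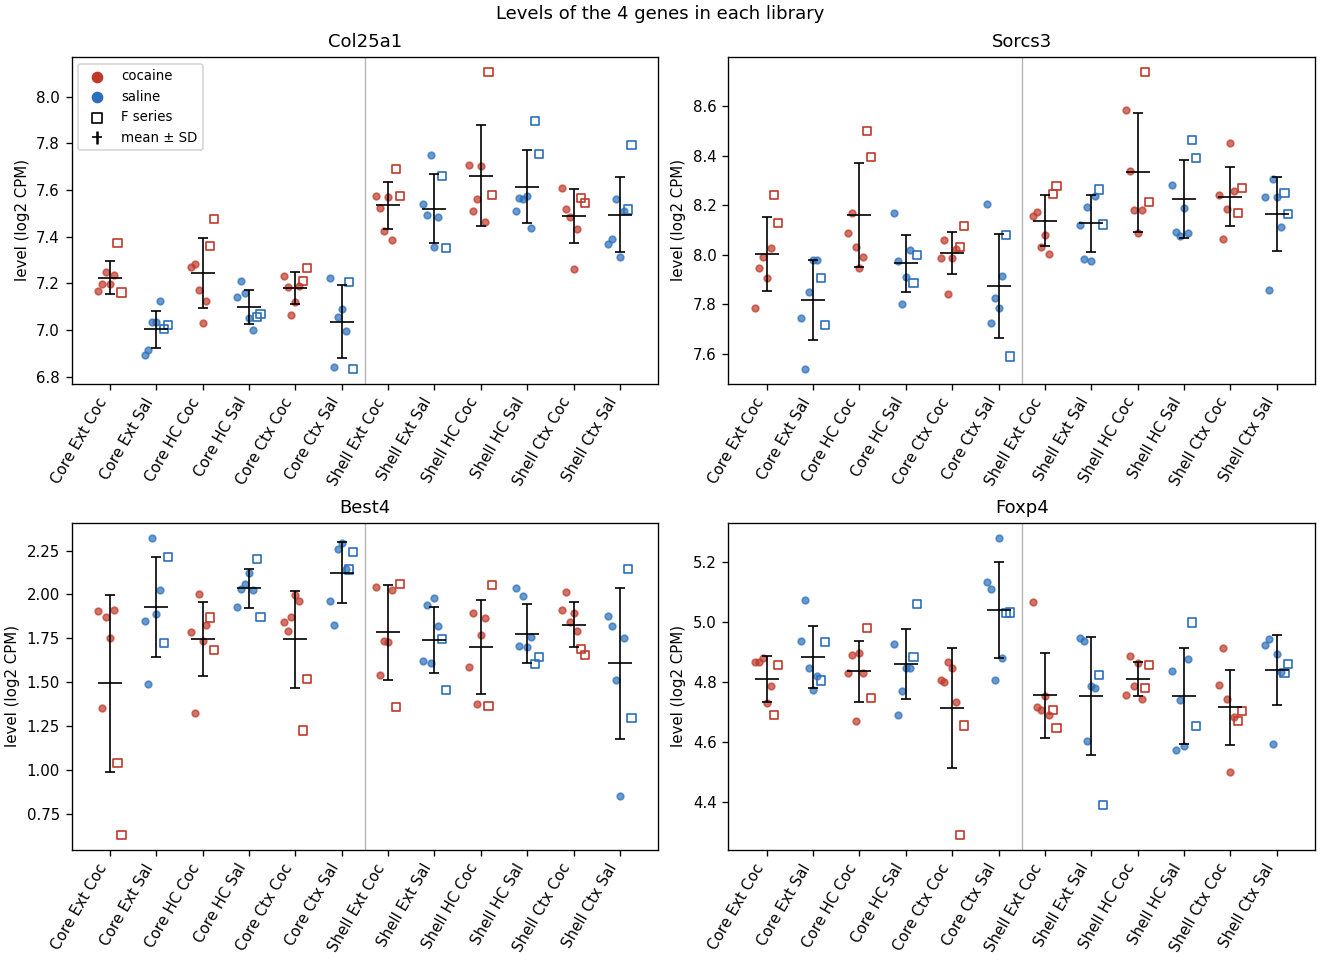
Level of each gene (y axis, log2 CPM) in each of the 84 libraries by group (x axis); red points are cocaine, blue points saline, open squares the F series, and black bars the mean ± SD of 7 libraries. Col25a1 in Core Ext shows no overlap between drugs (7.16 and above with cocaine, 7.12 and below with saline), Best4 in Core Ext has 1 library at 0.63, and Col25a1 is higher in Shell (mean 7.55) than in Core (7.13).

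A sign shared by all 3 conditions is part of the rule that chose the genes, so its share is a description and no support. Of the 31370 genes tested in Core, 795 (2.53%) had a positive difference in all 3 conditions and 2265 (7.22%) a negative one. None of the 31370 genes passed an adjusted p of 0.05 in edgeR's quasi-likelihood test of cocaine against saline in Core, on average or in Ext, HC or Ctx (0% in each). At an unadjusted p under 0.05 there were 434, 180, 186 and 3407 genes. Where no gene differs, such a threshold passes a share of about 0.05 of all genes. Only the count in Ctx lies above that share. DESeq2's Wald test called 0, 1, 0 and 2. The median difference of all genes was itself not 0: it was -0.07 in Ext, -0.10 in HC and 0.03 in Ctx. With DESeq2's size factors in place of TMM scaling that median moved by more than 0.1 in Ctx, to 0.14, and was -0.12 in Ext and in HC. Col25a1 in Ctx then read 0.28 in place of 0.17, and Sorcs3 0.26 in place of 0.15. Set against the median of all genes the choice of scaling mattered little: Col25a1 stood 0.28 above it in Ext, 0.23 in HC and 0.14 in Ctx, and Sorcs3 0.24, 0.28 and 0.12. Best4 stood at -0.35, -0.21 and -0.39 relative to that median. Foxp4 stood at -0.32 in Ctx but at -0.01 in Ext and 0.06 in HC, so relative to other genes it was lower in Ctx and level in the other conditions.

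In Shell, whose libraries the choice did not use, the drug difference could be tested, and the 4 genes did not pass. None of 30911 genes passed an adjusted p of 0.05 in edgeR on average over conditions (0%), with 289 at an unadjusted p under 0.05 and 0 in DESeq2. Within Ext, HC and Ctx the edgeR calls were also 0% of genes, with 486, 414 and 1492 at an unadjusted p under 0.05. DESeq2 called 0, 0 and 1. The average for Col25a1 was 0.02 ± 0.04 (SE; 95% interval -0.07 to 0.11; edgeR adjusted p = 1.00), below its Core value of 0.17. Sorcs3 had 0.06 ± 0.05 (-0.03 to 0.16), against 0.17 in Core. Best4 had 0.06 ± 0.09 (-0.11 to 0.23), with a sign opposite to Core. Foxp4 had -0.02 ± 0.04 (-0.11 to 0.06), against -0.14 in Core. The Core values have 95% intervals too: 0.09 to 0.26 for Col25a1 and 0.06 to 0.28 for Sorcs3. For Best4 the Core interval was -0.55 to -0.18 and for Foxp4 -0.23 to -0.05. All but that of Best4 overlap the Shell intervals, and all belong to the values that chose the genes. Whether the drug difference itself differs between Core and Shell was not tested, because the Core side chose the genes.

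The Shell libraries show this gene by gene. Col25a1 in Shell ran from 7.39 to 7.69 (median 7.57) with cocaine and 7.35 to 7.75 (median 7.49) with saline in Ext. In HC it ran from 7.46 to 8.11 (median 7.58) and 7.44 to 7.89 (median 7.57), and in Ctx from 7.26 to 7.61 (median 7.52) and 7.31 to 7.79 (median 7.51). The ranges of the drugs overlapped in each condition. Sorcs3 in Shell ran from 8.00 to 8.28 (median 8.16) and 7.97 to 8.26 (median 8.12) in Ext, in the same order of drugs. In HC it ran from 8.09 to 8.74 (median 8.21) and 8.08 to 8.46 (median 8.19), and in Ctx from 8.07 to 8.45 (median 8.24) and 7.86 to 8.31 (median 8.23). Its fitted difference in Shell was positive in HC (0.12 ± 0.08), in Ctx (0.08 ± 0.08) and, at 0.0006 ± 0.08, in Ext. Single libraries carried much of it: the difference of means in HC was 0.11 but 0.04 without library 6-F, with 3 of 7 cocaine libraries above the saline mean. In Ctx it was 0.07, with 6 of 7 above, and 0.02 without library 3-18. Of the Shell genes 3.8% were positive in all 3 conditions and 6.36% negative. The other genes changed sign between Shell conditions.

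Best4 in Shell ran from 1.36 to 2.06 (median 1.73) with cocaine and 1.46 to 1.98 (median 1.74) with saline in Ext. In HC it ran from 1.37 to 2.06 (median 1.77) and 1.60 to 2.03 (median 1.71), and in Ctx from 1.65 to 2.01 (median 1.85) and 0.85 to 2.15 (median 1.75). In Shell Ctx all 7 cocaine libraries lay above the saline mean, the reverse of Core, with a fitted difference of 0.18 ± 0.15 (95% interval -0.12 to 0.48; edgeR adjusted p = 0.73). The saline library 4-17, at 0.85, lowered that mean: the difference of means was 0.22 with it and 0.09 without it. Foxp4 in Shell ran from 4.65 to 5.07 (median 4.71) and 4.39 to 4.95 (median 4.79) in Ext. In HC it ran from 4.74 to 4.89 (median 4.79) and 4.57 to 5.00 (median 4.74), and in Ctx from 4.50 to 4.91 (median 4.70) and 4.59 to 4.94 (median 4.86). Ctx was also the Shell condition with its most negative difference, -0.12 ± 0.08 (95% interval -0.27 to 0.04; edgeR adjusted p = 0.73), and 6 of 7 cocaine libraries lay below the saline mean.

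**Figure D2:**
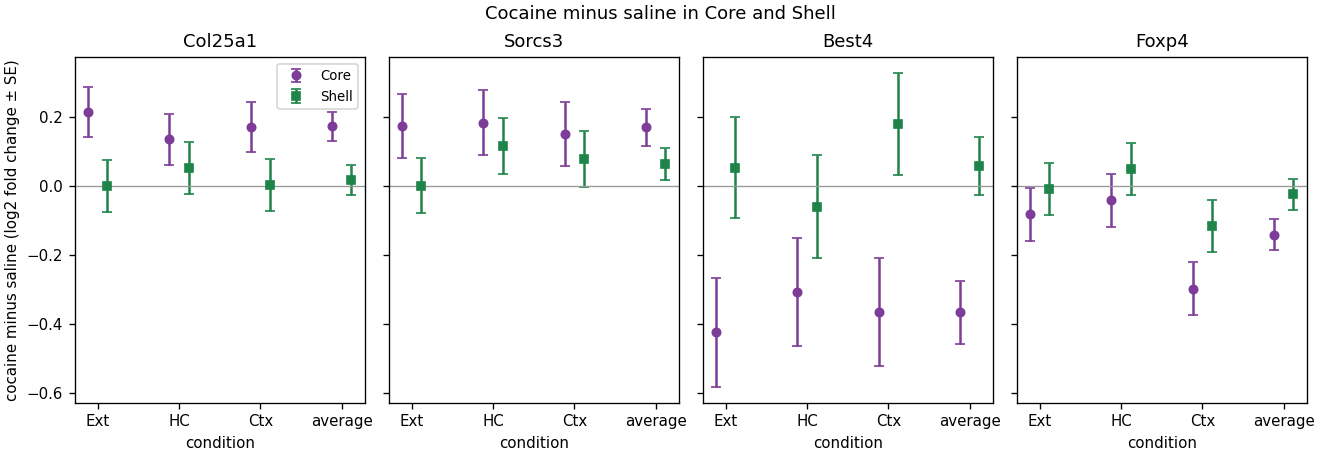
Cocaine minus saline (y axis, fitted log2 fold change ± SE) in Ext, HC, Ctx and their average (x axis); circles are Core, squares Shell, each from 7 libraries a group. Core values of Col25a1 and Sorcs3 lie above 0 and those of Best4 below it in each condition, while the Core value of Foxp4 departs from 0 mainly in Ctx (-0.30); Shell averages lie between -0.02 and 0.06.

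The Core differences were found in each library series but were largest in the F series. Averaged over conditions, Col25a1 differed by 0.18 ± 0.07 in series 1, by 0.09 ± 0.03 in 2 and by 0.28 ± 0.07 in F (SE). Sorcs3 differed by 0.11 ± 0.10, 0.08 ± 0.04 and 0.37 ± 0.09. Best4 differed by -0.18 ± 0.14, -0.25 ± 0.06 and -0.74 ± 0.13, and Foxp4 by -0.13 ± 0.05, -0.07 ± 0.06 and -0.25 ± 0.09. Each gene thus kept its sign in all 3 series, with the F value the farthest from 0 for all 4. These series are parts of the Core libraries that chose the genes, so a shared sign is no independent support. Without the F series the fitted averages were 0.14 ± 0.04 for Col25a1, 0.09 ± 0.06 for Sorcs3, -0.22 ± 0.08 for Best4 and -0.09 ± 0.05 for Foxp4. For Sorcs3, Best4 and Foxp4 this moved the value by over 1.5 times. Within series 2, the largest, every one of the 3 conditions had the direction of the average for all 4 genes, from 0.04 to 0.16 for Col25a1, 0.04 to 0.11 for Sorcs3, -0.29 to -0.22 for Best4 and -0.17 to -0.01 for Foxp4. Series 1 and F had these directions too, except for Foxp4 in HC of series 1, at 0.05. In Shell the same averages by series 3, 4 and F were 0.09 ± 0.04, -0.03 ± 0.06 and 0.01 ± 0.12 for Col25a1, and 0.17 ± 0.09, 0.01 ± 0.05 and 0.04 ± 0.09 for Sorcs3. The value of Shell series 3 was thus as large for Col25a1 as that of Core series 2, and for Sorcs3 above those of Core series 1 and 2. Best4 had -0.003 ± 0.13, 0.12 ± 0.12 and 0.05 ± 0.22 in Shell, and Foxp4 -0.01 ± 0.08, -0.02 ± 0.05 and -0.03 ± 0.09.

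The drugs also differed in background within series. The background level of cocaine libraries minus that of saline libraries was 0.59 in Core series 1, 0.15 in 2 and -0.97 in F, or -1.95 in F without library 17-F. Series 2 thus had the best matched background, with a range of 9.17 to 10.61, and there the 4 differences were 0.09, 0.08, -0.25 and -0.07. Leaving 17-F out of series F gave 0.29 for Col25a1, 0.39 for Sorcs3, -0.69 for Best4 and -0.19 for Foxp4. With the background level as a term in the fit, the Core averages were 0.17 ± 0.04, 0.17 ± 0.05, -0.35 ± 0.07 and -0.14 ± 0.04. With that term and without 17-F, a setting chosen after seeing the data, they were 0.17, 0.16, -0.30 and -0.12. Without the term they were 0.17, 0.17, -0.37 and -0.14, so Best4 moved most, to -0.30 in the last setting. The term gives each gene a single slope over all series. What part of the differences comes from background was not tested.

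**Figure D3:**
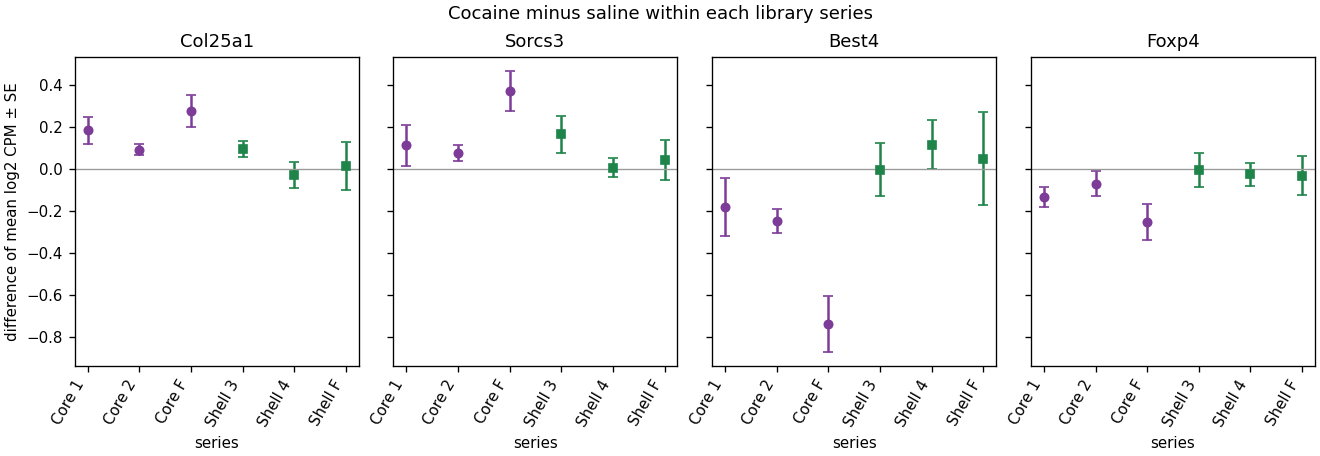
Difference of mean log2 CPM between cocaine and saline (y axis, ± SE), averaged over conditions, within each library series (x axis); circles are Core, squares Shell. Core series F lies farthest from 0 for each gene (0.28, 0.37, -0.74 and -0.25), and Shell series lie on both sides of 0 for Col25a1 and Best4.

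Levels within a group followed the background level in some series and not in others. Series were not removed, so each r and p over 42 libraries also takes in differences between series. The mean background in Core was 8.51 in series 1, 10.22 in 2 and 8.19 in F. After removal of group means, Best4 in Core rose with the background (Pearson r = 0.59, Spearman rho = 0.60, n = 42, permutation p = 3e-05 for each; adjusted over the 8 relations computed, 0.00012 and 0.00024). Without the 2 libraries farthest from the median background r was 0.59. Taken by series, r was 0.91 for 1, -0.21 for 2 and 0.18 for F, so the relation held in series 1 and not in the other series. Col25a1 in Shell fell with the background (r = -0.76, rho = -0.57, n = 42, permutation p = 1e-05, the smallest these permutations can give, and 0.00013; adjusted 8e-05 and 0.00052). It was -0.58 without the 2 farthest libraries, and -0.50, -0.48 and -0.97 in series 3, 4 and F. Sorcs3 fell with it in Shell (r = -0.48, rho = -0.42, permutation p = 0.00144 and 0.00682, adjusted 0.00384 and 0.0182) and by Pearson's r in Core (-0.41, p = 0.00676, adjusted 0.0135; rho = -0.34, p = 0.028, adjusted 0.0511). Within series, Sorcs3 had r of -0.47, 0.02 and -0.73 in Shell and -0.24, 0.47 and -0.61 in Core, so its relation did not hold in series 4 or 2. The other 4 relations had adjusted p of 0.0511 or more: r was -0.30 for Col25a1 in Core, -0.30 and -0.26 for Foxp4 in Core and Shell, and 0.24 for Best4 in Shell.

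**Figure D4:**
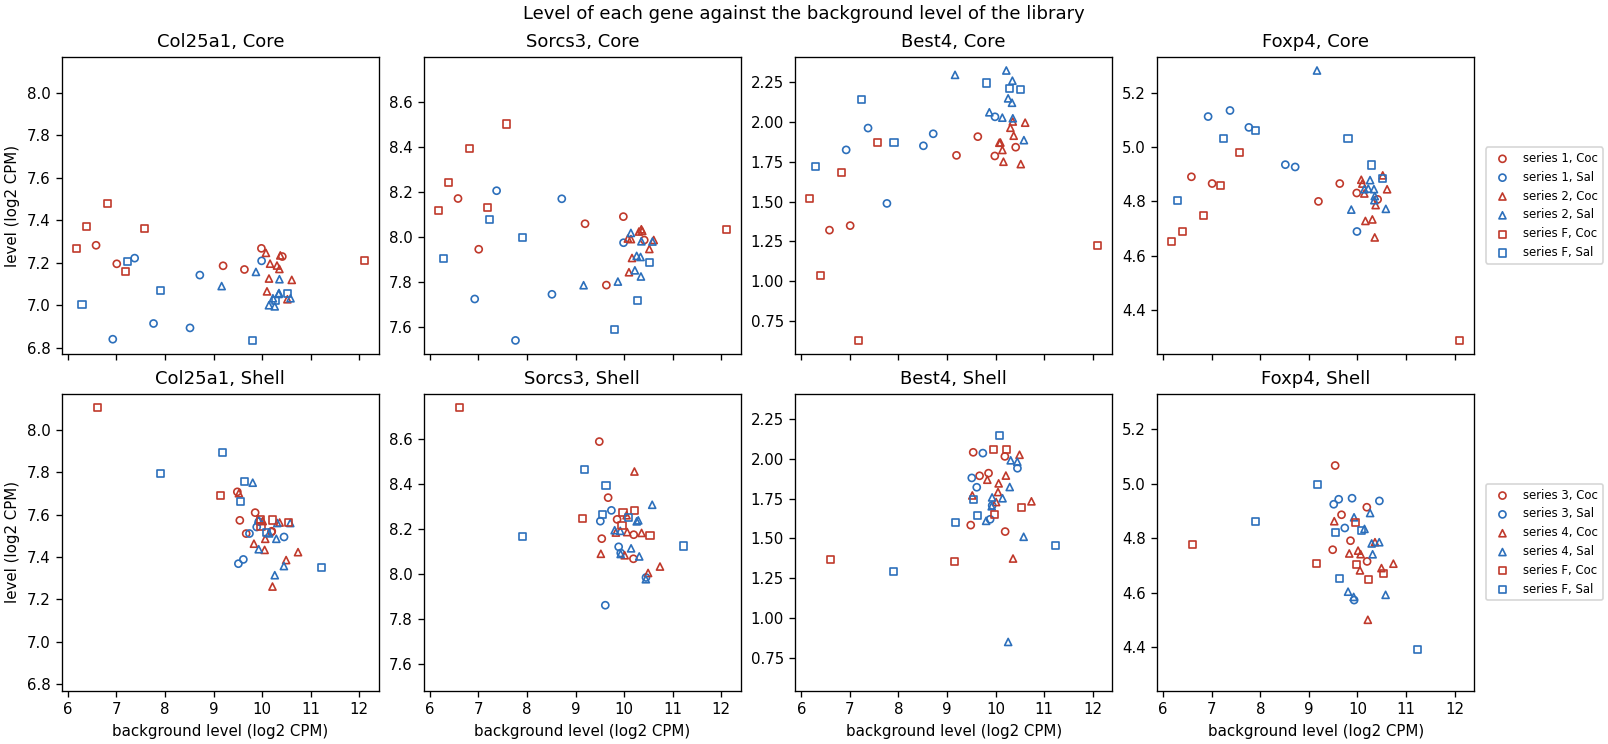
Level of each gene (y axis, log2 CPM) against the background level of the library (x axis, log2 CPM summed over 2033 receptor genes), Core above and Shell below; red is cocaine, blue saline, and marker shapes are library series. Library 17-F sits alone at 12.10 in the Core panels. Within Core series, Best4 had r = 0.91 with the background in 1, -0.21 in 2 and 0.18 in F.

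Core and Shell series carry the same title numbers (1-k with 3-k, 2-k with 4-k). Libraries of the same number resembled each other over 200 variable genes in a check chosen after seeing the data. There the median r was 0.42, and 23 of 30 pairs correlated best with their own number. The first version of the check gave 0.22 and 10 of 30. The labels do not say that such libraries come from 1 rat. Deviations from group means were therefore compared over 30 pairs of libraries for each of the 4 genes. Foxp4 in Core went with Foxp4 in Shell (r = 0.49, rho = 0.48, permutation p = 0.00676 and 0.00887; adjusted over the 4 genes 0.027 and 0.0355). Without the 2 pairs farthest from the Core median its r was 0.40 (adjusted p = 0.143), and with the background level removed 0.23 (adjusted p = 0.291), so the call held in neither setting. By series its r was 0.51 in 1 with 3 and 0.32 in 2 with 4. The other genes did not pass. Sorcs3 had r = 0.32 and rho = 0.28 (permutation p = 0.0834 and 0.13, adjusted 0.111 and 0.174), from 0.68 in 1 with 3 to -0.02 in 2 with 4. Best4 had r = -0.35 and rho = -0.35 (p = 0.058 and 0.0632, adjusted 0.111 and 0.126), with -0.02 and -0.52 by series. Col25a1 had r = -0.0034 and rho = -0.036 (p = 0.985 and 0.851, the same when adjusted), with -0.05 and -0.25 by series. Without the 2 farthest pairs these r were 0.25, -0.29 and 0.04.

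Marker lists had opposite signs in different Core conditions, and none of their genes passed an adjusted p of 0.05 in edgeR for cocaine against saline (0 of each list). Of the 10 projection neuron markers 8 were higher with cocaine in Ext, 10 in HC and 0 in Ctx, with median log2 fold changes of 0.12, 0.13 and -0.32. Of the 7 oligodendrocyte markers 7, 7 and 0 were higher (0.25, 0.08 and -0.56), of the 6 astrocyte markers 5, 5 and 0 (0.12, 0.15 and -0.44), and of the 6 oligodendrocyte precursor markers 5, 5 and 0 (0.05, 0.09 and -0.42). Microglia had 3, 5 and 0 of 6 (0.01, 0.08 and -0.32), interneurons 7, 5 and 3 of 12 (0.03, -0.11 and -0.17), and cortical glutamatergic neurons 5, 5 and 1 of 7 (0.41, 0.13 and -0.77). Foxp4, with its difference mainly in Ctx, thus stands beside lower markers of most brain cells there, while Col25a1 and Sorcs3 had the opposite sign to them in Ctx. Endothelium had 2, 2 and 2 of 5 (-0.09, -0.13 and -0.14) and blood 1, 4 and 0 of 4 (-0.39, 0.35 and -0.65). Mural cells and fibroblasts had 0, 2 and 3 of 6 (-0.56, -0.17 and 0.06), and choroid plexus 0, 1 and 3 of 4 (-0.33, -0.31 and 0.30). These counts and medians are descriptions. Without library 17-F, 0 projection neuron, oligodendrocyte, precursor, astrocyte and microglia markers were still higher in Ctx, with medians of -0.13, -0.34, -0.29, -0.25 and -0.20, against -0.07 over all genes. Foxp4 in Ctx was -0.25 ± 0.07 without it. With DESeq2's size factors the medians turned sign in Ext for interneurons (-0.01) and microglia (-0.03), and in no other list or condition.

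The summed levels of these lists overlapped between the drugs. Over all Core libraries the oligodendrocyte markers summed to 7.45 to 12.85 with cocaine and 10.78 to 12.84 with saline, and in Core Ctx to 7.45 to 12.55 (median 11.31) and 11.24 to 12.76 (median 11.46). Projection neuron markers summed to 6.92 to 11.72 and 9.60 to 11.60 over all Core libraries, interneuron markers to 7.13 to 8.21 and 7.42 to 8.25, and astrocyte markers to 7.01 to 11.00 and 9.32 to 10.95. Library 17-F holds the low end with cocaine in each of these 4 lists. Cortical neuron markers summed to 2.94 to 7.06 and 3.11 to 7.37, choroid plexus to 3.03 to 4.86 and 2.82 to 5.01, and precursors to 5.38 to 8.30 and 6.87 to 8.43. Microglia summed to 5.24 to 6.90 and 5.95 to 7.17, endothelium to 7.02 to 7.48 and 7.19 to 7.79, mural cells and fibroblasts to 5.49 to 6.48 and 5.74 to 8.20, and blood to 2.13 to 5.84 and 3.87 to 6.73. No marker was at 0 in most libraries. The part of these cells in the differences of the 4 genes was not tested, and in such bulk tissue fewer cells of a type and less RNA per cell cannot be told apart.

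No contrast of conditions, averaged over drugs, passed for any of the 4 genes. In Core, 0% of the 31370 genes passed an adjusted p of 0.05 in edgeR for Ext minus HC, Ctx minus HC and Ext minus Ctx. At an unadjusted p under 0.05 there were 113, 128 and 267 genes, and DESeq2 called 0 in each. In Shell 1 gene, none of the 4, passed for Ext minus HC (0.00324%), and 0% did for the other contrasts. The unadjusted counts were 7400, 1329 and 511, and DESeq2 called 6, 4 and 0. Sorcs3 had an Ext minus HC difference of -0.16 ± 0.07 in Core and -0.13 ± 0.06 in Shell (SE; edgeR adjusted p = 1.00 and 0.21). The largest condition difference of Col25a1 was Ctx minus HC in Shell, -0.14 ± 0.05 (adjusted p = 0.72). Best4 in Core had its largest condition difference between Ext and Ctx, -0.20 ± 0.11 (adjusted p = 0.77). Foxp4 had the smallest, between -0.04 and 0.03 in both subregions.

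Between the subregions 3 of the 4 genes differed past the threshold. Col25a1 was higher in Shell, where its mean level was 7.55 ± 0.16 against 7.13 ± 0.14 in Core (SD, n = 42 each). All 42 Shell libraries lay above the Core median and 31 of them above every Core library. The difference was 0.41 ± 0.03 (SE; 1.33-fold; edgeR adjusted p = 2.65e-19). Sorcs3 was also higher in Shell, at 8.20 ± 0.16 against 7.97 ± 0.19, by 0.22 ± 0.03 (1.16-fold; adjusted p = 6.02e-07), and 39 of 42 Shell libraries lay above the Core median. Foxp4 was lower in Shell, at 4.77 ± 0.14 against 4.86 ± 0.16, by -0.10 ± 0.03 (1.07-fold; adjusted p = 0.0218). Best4 had 1.74 ± 0.26 in Shell and 1.84 ± 0.34 in Core, and its difference of -0.13 ± 0.06 did not pass (adjusted p = 0.153). Of 32145 genes tested, 4.56% were higher in Shell and 8.77% lower, and the 4 genes gave 2 higher and 1 lower. With the background level as a term the split turned to 9488 higher and 3796 lower genes, and Best4 then passed at -0.20 (adjusted p = 0.00195). Foxp4 did not pass without the filter on low counts (-0.09, adjusted p = 0.0855).

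Outside the F series, subregion and series number cannot be told apart, since Core libraries are in series 1 and 2 and Shell libraries in series 3 and 4. Within the F series alone the differences were 0.49 ± 0.11 for Col25a1, 0.23 ± 0.11 for Sorcs3, -0.10 ± 0.10 for Foxp4 and -0.02 ± 0.18 for Best4, against a median of 0.26 over all genes, and none passed (edgeR adjusted p = 0.0878 for Col25a1). Without library 17-F, a setting chosen after seeing the data, Col25a1 in the F series had 0.48 ± 0.11 and passed (adjusted p = 0.0398), while the others did not. The oligodendrocyte markers moved with subregion: their summed level had a mean of 11.59 and 11.76 in the Core drug groups and 9.98 and 9.99 in the Shell ones. Their part in the subregion differences was not tested.

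Ranked over the 12 groups, the 4 genes show different orders. For Col25a1 the 6 Shell groups came first, from Shell HC_Coc (7.66 ± 0.22, SD) to Shell Ctx_Coc (7.49 ± 0.11), then the 3 Core cocaine groups (7.24 in HC, 7.22 in Ext, 7.18 in Ctx) and last the 3 Core saline groups (7.10 in HC, 7.03 in Ctx, 7.00 in Ext). Of the 11 gaps between neighbours 2 were larger than both SDs: 0.24 between Shell and Core, and 0.08 between the Core cocaine and saline groups. For Sorcs3, Shell HC_Coc was highest (8.33 ± 0.24) and Core Ext_Sal lowest (7.82 ± 0.16), with Core HC_Coc (8.16 ± 0.21) among the Shell groups. Only 1 gap, 0.12 between Shell Ext_Sal and Core Ctx_Coc, was larger than both SDs. For Best4 the 3 Core saline groups led (2.12 in Ctx, 2.03 in HC, 1.93 in Ext) and Core Ext_Coc was last (1.49 ± 0.51). For Foxp4 Core Ctx_Sal was highest (5.04 ± 0.16) and Core Ctx_Coc lowest (4.71 ± 0.20). No gap between neighbours was larger than both SDs for Best4 or Foxp4 (0 of 11 each). Group means spanned 0.63 for Best4 in Core and 0.22 in Shell, and 0.33 and 0.13 for Foxp4.

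The relatives and partners of the 4 genes were followed as lists, and 0 of their members passed for cocaine against saline or between conditions in Core or Shell. Among the VPS10P receptors, Sorcs1 had a Core average of 0.13 ± 0.11 and Sorcs2 of -0.07 ± 0.07 (SE; edgeR adjusted p = 1.00 each). For the drug average in Core, 1 of the 4 receptors other than Sorcs3 was positive, with a median of -0.01 against -0.03 over all genes. Among 13 neurotrophin genes and sortilin partners, 5 were positive (median -0.06). Ntrk3, a neurotrophin receptor, had 0.11 ± 0.12, and Ntf4, a neurotrophin of low level here (mean log2 CPM -0.19 in Core), had -0.45 ± 0.22. Among the 9 other membrane collagens and partners of Col25a1, 2 were positive (median -0.04), and the related collagens Col17a1 and Col13a1 had -0.35 ± 0.29 and -0.34 ± 0.33. Among the 8 other bestrophins and calcium-activated chloride channels 0 were positive (median -0.16), with Ano1 at -0.27 ± 0.27 and Best1 at -0.07 ± 0.07. Among the 19 other FoxP factors and corepressors 5 were positive (median -0.04), with the NuRD subunit Gatad2a at -0.07 ± 0.05 and the corepressor Ctbp2 at -0.13 ± 0.09. None of these passed (adjusted p = 1.00 for each gene named). Without library 17-F the positive members numbered 3 of 4, 5 of 13, 5 of 9, 0 of 8 and 13 of 19 in the same order of lists, with medians of 0.03, -0.02, 0.01, -0.35 and 0.01 against -0.07 over all genes. With DESeq2's size factors 2 of the 8 bestrophins and chloride channels were positive on average (median -0.12).

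These averages join conditions that differ in sign. Of the 19 other FoxP factors and corepressors 17 were positive in Core Ext (median 0.13), 18 in HC (0.15) and 0 in Ctx (-0.36), and Foxp4, at -0.30 in Ctx, had the sign of all 19 there. The same list in Shell had 13, 17 and 1 positive (0.09, 0.12 and -0.15). Without 17-F the Core counts were 16, 18 and 1 (0.12, 0.15 and -0.21). Of the 8 other bestrophins and chloride channels 1 was positive in Core Ext (-0.42), 0 in HC (-0.52) and 7 in Ctx (0.53), where Best4 had the opposite sign at -0.37. Without 17-F the Ctx count was 5 of 8 with a median of 0.04, and Best4 had -0.31 ± 0.16. The VPS10P receptors other than Sorcs3 had 3, 3 and 0 of 4 positive in Core Ext, HC and Ctx (0.17, 0.15 and -0.22), so Sorcs3, at 0.15 in Ctx, differed in sign from its relatives there. Collagens and partners of Col25a1 had 6, 6 and 3 of 9 (0.10, 0.14 and -0.38), against 0.17 for Col25a1 in Ctx. Neurotrophin genes and sortilin partners had 8, 6 and 4 of 13 (0.03, -0.0003 and -0.24). Without 17-F the Ctx counts of these 3 lists were 0 of 4, 0 of 9 and 1 of 13, with medians of -0.17, -0.20 and -0.13. With DESeq2's size factors the list medians by condition kept their sign, except that of neurotrophin genes in Ext (-0.01), and 2 of the 19 FoxP factors and corepressors were positive in Ctx.

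Between the subregions some relatives did differ past the threshold. Over all 32145 genes tested, 4.56% were higher in Shell and 8.77% lower. Outside the F series, subregion and series number cannot be told apart for these genes either. Sort1, sortilin, was lower in Shell by -0.53 ± 0.11 (edgeR adjusted p = 0.00012) and Sorcs1 by -0.24 ± 0.08 (adjusted p = 0.0213), opposite to Sorcs3, and these were the 2 of 4 VPS10P receptors that passed. Among the partners of Col25a1, 4 of 9 were lower in Shell, led by the receptor phosphatase Ptprd at -0.69 ± 0.09 (adjusted p = 2.41e-09). Bace1, the beta-secretase that cuts APP, had -0.36 ± 0.10 and Ptprf, another receptor phosphatase, -0.26 ± 0.07 (adjusted p = 0.00789 and 0.00832). Best1 was the 1 of 8 bestrophins and chloride channels that passed, lower by -0.26 ± 0.05 (adjusted p = 3.14e-05). Of the 19 FoxP factors and corepressors 3 were higher and 1 lower in Shell: Foxp2 had 0.22 ± 0.07, Ctbp2 0.17 ± 0.05 and Gatad2a -0.13 ± 0.03 (adjusted p = 0.0160, 0.0164 and 0.00422).

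The genes whose levels went most like those of each of the 4 were ranked by Spearman's rho over 84 libraries, after removal of series and background within each subregion, among 15454 genes. For Col25a1 they were Zfp385d (rho = 0.67), Mpped2 (0.60), Ptprm (0.55), Il20ra (0.53) and Meox2 (0.53). For Sorcs3 they were Aopep (0.83), Aig1 (0.75), Ptprt (0.74), Clvs1 (0.73) and Grip1 (0.73), a scaffold protein of AMPA receptors. For Best4 they were St14 (0.62), Palm3 (0.58), Tubg1 (0.56), Gcgr (0.56) and Nfkb2 (0.55), and for Foxp4 Aknad1 (0.67), Coro1c (0.66), Ifitm10 (0.65), Tgfb3 (0.65) and Adam33 (0.65). The nearest genes to Sorcs3 were 195898 to 1098635 bases long and those of Foxp4 16680 to 72220, while those of Col25a1 (60708 to 809794) and Best4 (4096 to 40900) overlapped the Foxp4 range in part. Among the 4 themselves, Col25a1 and Sorcs3 went together (rho = 0.51), as did Best4 and Foxp4 (0.44). The other pairs were opposed, with rho from -0.39 to -0.26. These values are descriptions: libraries share groups, and the drug groups that chose the genes are among them. In the annotation 2 other genes overlap Col25a1 and 3 overlap Sorcs3, with counts equal to 0.659% and 0.487% of theirs, and 0 overlap Best4 or Foxp4.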

How the data were processed

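The 4 genes and the lists of relatives and markers were chosen with earlier results of these data known. RNA was extracted with Direct-zol columns and made into SMARTer Stranded Total RNA v3 Pico libraries, per the labels' protocols. The deposited counts are unscaled whole numbers; featureCounts and build mRatBN7.2 are named in the submitters' processing notes. For the aligner, annotation, strand handling and molecular identifiers the entry is "not given in the sources used here", so counts may include repeated copies of a molecule and reads of overlapping genes. The authors' deposited FPKM values go back to those counts, since both imply 1 length per gene. FPKM was used only for lengths and per-length levels. No count column was left unused (0), and 0 gene names were blank.

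Libraries were grouped by title. Genes were kept by filterByExpr (31370 in Core, 30911 in Shell, 32145 over both), scaled by TMM and fitted with edgeR 4.0.16 (R 4.3.3), with the series as a covariate (F against numbered series for Shell minus Core). Tests were two-sided quasi-likelihood F tests with Benjamini-Hochberg adjustment over all genes and a threshold of 0.05. Levels per library are log2 CPM with a prior count of 2. Correlations used 100000 permutations. The fitting code was tested on simulated data. Alternatives were DESeq2 1.42.0 size factors and its Wald test, no filter, no series term, no F series, only the groups compared, a background term, no library 17-F, a replicate block and leaving out each library. Title numbers were taken to pair Core with Shell libraries, from the data and not the labels. Deviations of same-numbered libraries, with series and background removed, had correlations of 0.148 to 0.706 over 30 pairs (median 0.421, others -0.0181), all 30 above 0.1, and 23 of 30 correlated best with their own number. This version, on genes of mean log2 CPM from 1 up, was chosen after seeing the data; an earlier one, from 3 up and with 6 components removed, gave -0.039 to 0.412, with 22 of 30 above 0.1 and 10 of 30 best. Named genes are the 4, from each list up to 3 that passed or else the 2 of lowest p, and the 5 most alike by correlation. Symbols matched RefSeq for 29367 of 41919 genes. A gene that met the rule for naming is not reported here.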

Additional observations from a re-analysis of the deposited data

Results flagged for a closer look

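In 5 of the 48 sets of 7 libraries (4 genes in 12 groups) 1 library lay far from the others, by a gap above Dixon's critical share of the range. Chance gives about 1 in 20. Col25a1 in Core Ext_Coc had its highest level, 7.372, in library 1-F, against 7.16 to 7.25 in the others, and the background level there was 6.39. Col25a1 in Shell HC_Coc had its highest level, 8.106, in library 6-F, against 7.46 to 7.71, with a background level of 6.61. Foxp4 in Core Ctx_Coc had its lowest level, 4.289, in library 17-F, against 4.65 to 4.87, with a background level of 12.10. Foxp4 in Shell Ext_Coc had its highest level, 5.067, in library 3-2, against 4.65 to 4.75, with a background level of 9.54. Foxp4 in Shell Ctx_Sal had its lowest level, 4.592, in library 4-16, against 4.83 to 4.94, with a background level of 10.58. The part of the background in these values was not tested.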

How the results depend on the processing

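Of 602 values recomputed under other settings, 549 kept their direction and side of the threshold or moved by less than the spread between libraries, 30 tested values changed sign, and 23 crossed a threshold or moved by more. Among the 549, the untested Core HC value of Foxp4 changed sign in 2 settings (0.0303 without the F series, 0.00797 without library 15-F). The cause of these changes was not tested except where named. The average Core differences of the 4 genes kept their sign under every setting run. For Shell minus Core, the F series alone, with fewer samples, gave 0.49 for Col25a1 (edgeR adjusted p = 0.0878), 0.23 for Sorcs3 (0.421) and -0.10 for Foxp4 (0.465), and without library 17-F it gave 0.22 for Sorcs3 (0.113) and -0.13 for Foxp4 (0.216). No low-count filter gave -0.086 for Foxp4 (0.0855), and the background term gave -0.20 for Best4 (0.00195). Genes called for Shell minus Core numbered 4283, against 13284 with the background term, 8454 without 17-F, 76 in the F series alone and 714 in the F series without 17-F. DESeq2's Wald test called 2 genes in Core Ctx, 1 in Core Ext and 1 in Shell Ctx for cocaine minus saline, and 4 for Shell Ctx minus HC and 6 for Shell Ext minus HC, where edgeR called 0, 0, 0, 0 and 1. The background term gave 1 gene in Core Ctx, and for Shell Ext minus HC both it and leaving out the F series gave 0.

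The 30 changes of sign concern values near 0, none past the threshold. The Core with Shell correlation of Col25a1, -0.0034, became 0.0255 with the background level removed and 0.0435 without the 2 farthest pairs; that of Foxp4, 0.49, became 0.23 and 0.40 and did not pass. Ext minus Ctx in Core for Col25a1, -0.0022, became 8.93e-05 with the background term, 0.00682 with that term and without 17-F, 0.00691 without the F series and 0.00661 without 17-F. Cocaine minus saline in Shell Ctx for Col25a1 became -0.00349 with DESeq2's size factors, -0.00369 in its Wald test and -0.00685 without the filter. In Shell Ext it became 0.00766, 0.00778 and 0.00413 under these, 0.00328 without the series term and 0.00311 with only the groups compared, and in Shell HC -0.0144 with the background term. For Sorcs3 in Shell Ext it became -0.0121 with the background term and -0.0216 without the F series. Ctx minus HC in Shell for Best4 became -0.0334 with the background term, -0.0113 with size factors, -0.0084 in the Wald test and -0.0216 without the F series, and Ext minus HC -0.0112 with the background term. For Foxp4, Ext minus HC in Core became 0.0364 without the F series. In Shell, Ctx minus HC became -0.0127 with size factors and -0.0119 in the Wald test, Ext minus Ctx 0.00309 with the background term and 0.0231 without the F series, Ext minus HC 0.0181 and 0.0435 under these, and cocaine minus saline in Ext 0.000498 with size factors.

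With the replicate block, which leaves out the F series, Shell minus Core was 0.36 for Col25a1, 0.20 for Sorcs3, -0.18 for Best4 and -0.12 for Foxp4 (adjusted p = 2.75e-09, 0.000174, 0.130 and 0.0211), and 3536 genes were called, so the block changed no call of the 4 genes. Depth limits Best4 most, with as few as 14 counts in a library.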
